A study of Mus musculus with 4 samples.

Results

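The genes described here are the mitochondrial solute carriers and the subunits of the mitochondrial protein import machinery, chosen by name: every row of the count table whose symbol starts with Slc25a, Timm or Tomm followed by a digit. The rule gave 72 of the 24391 genes of the table, of which 47 are carriers (Slc25a) and 25 carry a translocase name (Timm or Tomm) by their symbols alone. One of the 25, Tomm6os, is annotated as an RNA antisense to Tomm6 and is kept apart, which leaves 24 translocase genes. RNA-Seq was available for 4 libraries of Beko cells, a mouse pre-T (progenitor T-cell) line with active Notch signaling. In 2 libraries (GSI) the cells had been kept for 48 h in DAPT, a γ-secretase inhibitor that stops the release of the Notch intracellular domain, and in the other 2 (washout) they had been kept for 48 h in DAPT, washed, and cultured for 24 h more. The DAPT dose is given as 10 mg/ml in the labels and with the same number in μg/ml in the methods. Every library came from the same line, the labels name no altered allele, and both groups had gone through the 48 h of inhibitor. The washout cells had also been 24 h longer in culture, so that the removal of DAPT and the additional time cannot be told apart. Nothing in the labels states that the replicates came from separate cultures, and p-values measure only the spread between these libraries, which may be technical.

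Most mitochondrial proteins are made in the cytosol and carried into the organelle by translocases. The TOM complex forms the entry gate of the outer membrane, with Tomm20, Tomm22 and Tomm70a as receptors and Tomm40 as the channel. The small TIM proteins chaperone hydrophobic precursors across the intermembrane space, the TIM23 complex moves precursors with a cleavable presequence into the matrix or the inner membrane, and the TIM22 complex inserts multi-spanning inner membrane proteins. The Slc25 carriers are themselves clients of the small TIM and TIM22 route. They exchange ADP for ATP and transport phosphate, amino acids, organic acids, cofactors and metals across the inner membrane. Developing T cells depend on this exchange when they divide.

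Depth was 29671401 and 13716199 counted reads in GSI replicates 1 and 2, and 36364200 and 14451995 in washout replicates 1 and 2, which are named in this order throughout. The edgeR quasi-likelihood test without a replicate block covered 12266 genes, with p-values adjusted by the Benjamini-Hochberg method over all of them, and log2 CPM correlated at 0.989 and 0.987 within the groups and at 0.932 to 0.944 between them. The Notch target genes Hey1 and Dtx1 were higher in the washout libraries, by 3.47 ± 0.12 (SE, adjusted p = 0.000281) and 3.2 ± 0.25 (SE, adjusted p = 0.000396) on the log2 scale, and Hes1 was 21.8 and 7.68 CPM in GSI and 43.6 and 37.9 CPM after washout (log2 difference 1.42 ± 0.41 SE, adjusted p = 0.0282). All 14 T-lineage markers lay above 1 CPM in every library, and their summed level was 7254 and 6566 CPM in GSI and 5350 and 5073 CPM after washout. Single T-lineage markers went either way, with Ptcra at 47.1 and 54.4 CPM in GSI and 249 and 276 CPM after washout, and Gata3 at 262 and 208 CPM in GSI and 75.8 and 71.7 CPM after washout. Of 5 mast cell markers, Ms4a2, Mcpt4 and Cma1 were listed at 0 in every library, and the sum, from Cpa3 and Kit, was 274 and 167 CPM in GSI and 45.7 and 30.5 CPM after washout. The sum of 6 myeloid markers, nearly all of it Itgam, was 49.2 and 38.2 CPM in GSI and 5.49 and 4.91 CPM after washout, with Lyz2 and Elane at 0. The B-lineage sum was 0.750 and 0.960 CPM in GSI and 0.323 and 0.372 CPM after washout (Pax5 and Ms4a1 at 0), and the fibroblast sum of 4 genes lay between 1.38 and 3.16 CPM (Dcn at 0). The part of these shifts in the results below was not tested.

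Import translocase genes were higher after washout nearly throughout, whereas the carriers moved in both directions. A gene was called when its adjusted p was under 0.05 and its log2 fold change was above 1 or below -1, and all changes are log2 fold changes of washout over GSI unless a fold is named. Of the 23 translocase genes tested, 9 were called higher and 0 lower (adjusted p alone: 20 higher, 0 lower, 3 not passing). With total count scaling 19 of them passed the adjusted p as higher and with DESeq2 18, and even fewer did without GSI replicate 1. Over all genes tested, 7.74% were called higher and 11.7% lower, and at the adjusted p alone 27% passed as higher and 25.4% as lower. The translocase counts of 39.1% called higher and 87% higher at the adjusted p alone stood above these shares. Of the 36 carriers tested, 2 were called higher and 2 lower, and at the adjusted p alone 12 were higher, 6 lower and 18 did not pass. These counts depended on single libraries and on scaling: 6 carriers passed as higher and 5 as lower without GSI replicate 1, 7 and 3 without GSI replicate 2, and 7 and 8 with total count scaling. The share of carriers called higher, 5.56%, was near that of all genes. Leaving out GSI replicate 2 gave 1 carrier called higher and leaving out washout replicate 2 gave 4, and DESeq2 gave 1 carrier called lower. The median log2 fold change was 0.74 for the translocases, 0.10 for the carriers and -0.0096 for all genes tested. In 21 of the 23 translocases both washout libraries lay above both GSI libraries, against 38.2% of all genes, and in 16 carriers they lay above and in 10 below, the latter against 39.1% of all genes. Where the libraries were scaled by their total counts alone, the median of all genes moved to -0.21, 7 translocases were called higher, and the carrier median fell to -0.10. In bulk RNA a change in the share of cells of a type and a change in RNA per cell cannot be told apart. With total count scaling 586 genes of the whole table were called higher and 1963 lower, against 950 and 1437 with TMM factors.

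**Figure D1:**
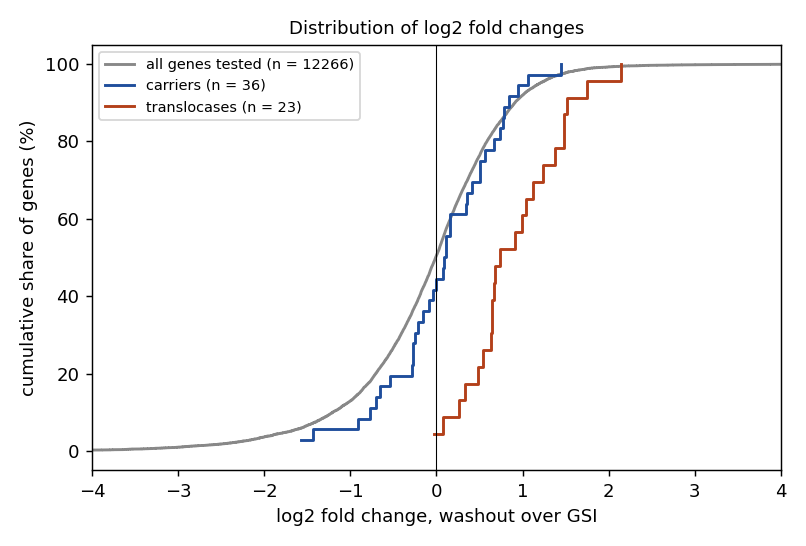
Cumulative share of genes (vertical axis, %) by log2 fold change of washout over GSI (horizontal axis) for all 12266 genes tested (grey), the 36 carriers (blue) and the 23 translocases (red). The medians of the carriers and of all genes are close, at 0.10 and -0.0096, and the translocase curve lies to the right, with a median of 0.74. The curves do not show the adjusted p, at which 16.7% of carriers and 25.4% of all genes passed as lower. The carrier share depended on the settings: 6 of 36 passed as lower here, 8 with total count scaling and 11 with the replicate number as a block.

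**Figure D2:**
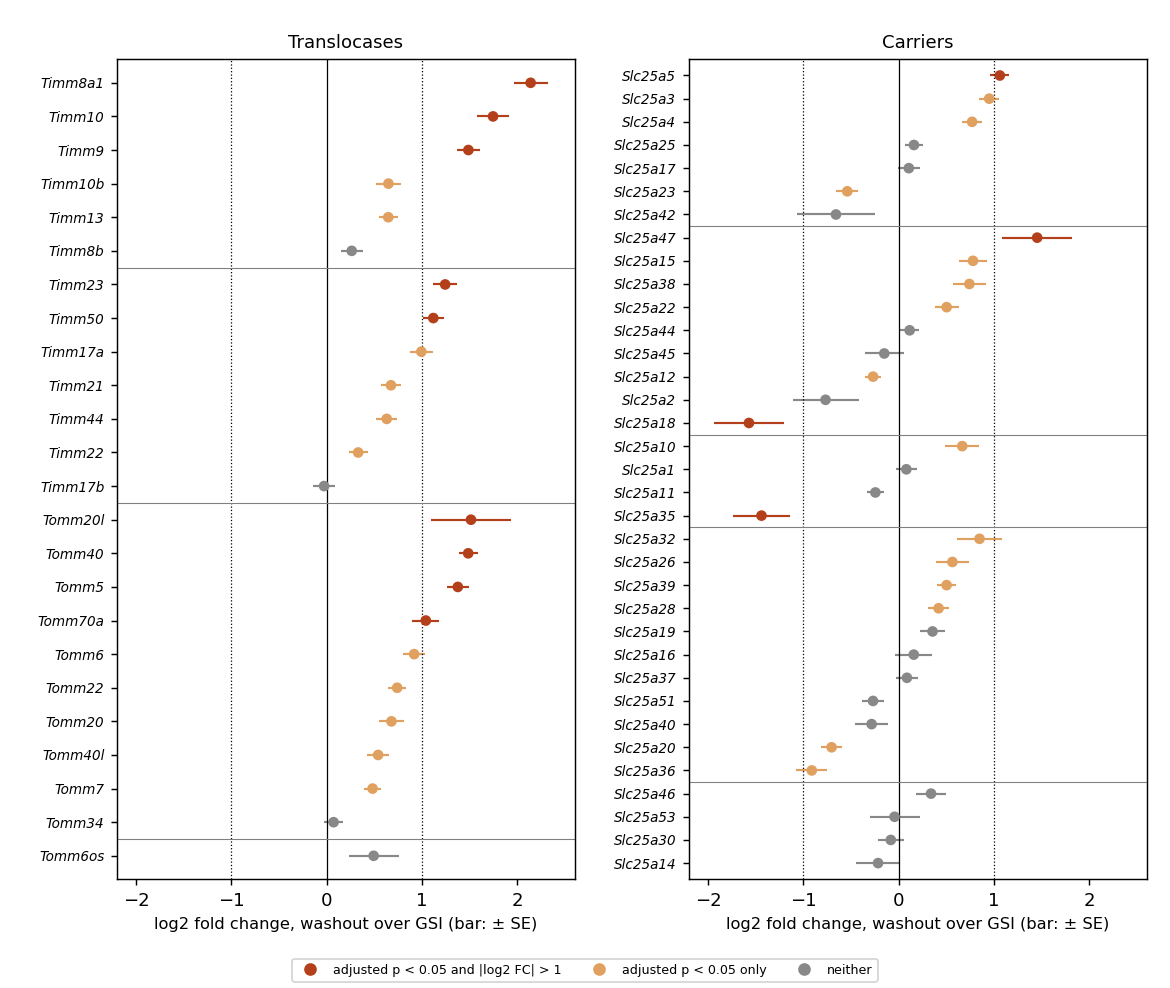
Log2 fold change of washout over GSI with its standard error (horizontal bars) for each tested translocase, including the antisense RNA Tomm6os (left), and each tested carrier but one whose difference was too close to 0 for a standard error (right); dotted lines mark 1 and -1, horizontal lines separate role groups, and the colors show which thresholds were passed. All 9 red points on the left lie above 1, and the red points on the right lie on both sides of 0.

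The small TIM chaperones held the 2 largest differences among the translocases. All 6 tested members had washout libraries above the GSI libraries, 3 were called higher, and 5 passed the adjusted p as higher. Over all genes tested these shares were 38.2%, 7.74% and 27%. Timm8a1 (chrX:131071795-131076404, mm9), the mouse counterpart of the gene altered in human deafness-dystonia syndrome, was at 9.78 and 9.8 CPM in the GSI libraries and 49.5 and 36.3 CPM in the washout libraries. The groups were well separated, although the washout libraries differed between themselves. The log2 fold change was 2.14 ± 0.18 (SE, adjusted p = 0.00044), which is 4.4-fold. Its paralog Timm8b was at 40.7 and 35.9 CPM in the GSI libraries and 48 and 43.9 CPM in the washout libraries, with a log2 difference of 0.26 ± 0.11 (SE, adjusted p = 0.0977), which did not pass. Timm9 and Timm10 together form the ring-shaped chaperone of carrier precursors. Timm9 (chr12:72224160-72237662) was at 18.2 and 15.6 CPM in the GSI libraries and 47.1 and 48.1 CPM in the washout libraries, and the log2 fold change was 1.49 ± 0.12 (SE, adjusted p = 0.000438). Timm10 (chr2:84667154-84670370) was at 5.06 and 4.66 CPM in the GSI libraries and 15.5 and 17.3 CPM in the washout libraries, with a log2 fold change of 1.74 ± 0.17 (SE, adjusted p = 0.000649). In both genes the libraries of each group lay close together and far from the other group. Timm10b, the small TIM bound to the TIM22 complex, and Timm13, the partner of the Timm8 proteins, rose less, by 0.65 ± 0.13 (SE, adjusted p = 0.00798) and 0.65 ± 0.098 (SE, adjusted p = 0.00259). Timm8a2 had 4 and 2 reads in GSI and 3 and 2 reads after washout and was not tested. The counting of Timm10b is uncertain, since its exons overlap Arfip2, Dnhd1 and a small nucleolar RNA, and the strand setting of the counting is not given in the sources used here.

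In the TIM23 and TIM22 translocases of the inner membrane, 2 of 7 genes were called higher, 6 of 7 passed the adjusted p as higher, and 0 passed as lower. Of all genes tested, 7.74% were called higher and 27% passed as higher. Timm23 (chr14:32993348-33015084), the channel subunit, was at 17.1 and 15.9 CPM in the GSI libraries and 41.6 and 36.5 CPM in the washout libraries (log2 fold change 1.24 ± 0.13 SE, adjusted p = 0.000694). Timm50 (chr7:29090535-29097091), the receptor that takes precursors over from the TOM complex, was at 34.3 and 38.2 CPM in the GSI libraries and 74.9 and 82.3 CPM in the washout libraries (log2 fold change 1.12 ± 0.11 SE, adjusted p = 0.000607). Neither gene had overlapping groups, but the exons of Timm23 share 104 bases with the small nucleolar RNA SNORA74 on the same strand. Timm17a and Timm17b are alternative partners of Timm23 in the channel. Timm17a was at 38.5 and 32 CPM in the GSI libraries and 73.1 and 67.6 CPM in the washout libraries, and its log2 fold change of 0.99 ± 0.12 (SE, adjusted p = 0.00127) lay just under the threshold of 1. Timm17b was at 29.7 and 32.1 CPM in the GSI libraries and 29.2 and 31.4 CPM in the washout libraries, so that the groups overlapped (log2 difference -0.028 ± 0.11 SE, adjusted p = 0.85). Of these alternative partners, only Timm17a thus passed the adjusted p. Timm21, which links TIM23 to the TOM complex, rose by 0.67 ± 0.11 (SE, adjusted p = 0.00295), and Timm44, the anchor of the import motor, rose by 0.63 ± 0.11 (SE, adjusted p = 0.0043). Timm22, the channel of the carrier insertion route, was at 38.2 and 40.2 CPM in the GSI libraries and 47.9 and 50.5 CPM in the washout libraries. It had the smallest difference that passed in this group, 0.33 ± 0.099 (SE, adjusted p = 0.0317). Timm22 did not pass with DESeq2 (adjusted p = 0.0729), with total count scaling (log2 difference 0.13, adjusted p = 0.295) or in thinned counts (adjusted p = 0.0821). Timm17a passed the threshold of 1 with DESeq2, without the filter on low counts (1.03), in thinned counts (1.04) and when GSI replicate 1 (1.13) or washout replicate 2 (1.06) was left out. Timm50 fell short of it when libraries were scaled by total count (0.92).

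In the TOM complex, 4 of 10 genes were called higher and 9 of 10 passed the adjusted p as higher, against 7.74% and 27% of all genes. Tomm40 (chr7:20286662-20300787), the outer membrane channel, was at 51.4 and 53.1 CPM in the GSI libraries and 139 and 153 CPM in the washout libraries. Both washout libraries lay far above the GSI libraries, and the log2 fold change was 1.48 ± 0.098 (SE, adjusted p = 0.000334). The exons of Tomm40 share 258 bases with Gm20512 on the other strand. Tomm5 (chr4:45118080-45120986), a small subunit of the complex, was at 17.2 and 19.1 CPM in the GSI libraries and 46.4 and 47.4 CPM in the washout libraries (log2 fold change 1.38 ± 0.11 SE, adjusted p = 0.000438). The receptor Tomm70a (chr16:57121827-57156818), which receives carrier precursors from cytosolic chaperones, was at 189 and 181 CPM in the GSI libraries and 427 and 331 CPM in the washout libraries (log2 fold change 1.04 ± 0.14 SE, adjusted p = 0.0018). Tomm70a lay near the threshold of 1: its log2 fold change was 0.84 with total count scaling, 0.9997 after adjustment for exon length and GC content, and 0.85 when washout replicate 1 was left out. The presequence receptors Tomm22 and Tomm20 rose by 0.74 ± 0.097 (SE, adjusted p = 0.00155) and 0.68 ± 0.14 (SE, adjusted p = 0.00735). Of the small subunits, Tomm6 rose by 0.92 ± 0.11 (SE, adjusted p = 0.00134) and Tomm7 by 0.48 ± 0.091 (SE, adjusted p = 0.00606), and Tomm6 was at 1.04 when washout replicate 1 was left out. The counts of Tomm6 are uncertain, since its exons overlap Prickle4 on the same strand and Usp49 and Tomm6os on the other. Tomm40l, a paralog of Tomm40, rose by 0.54 ± 0.11 (SE, adjusted p = 0.0091), but 2268 bases of its exons are shared with Nr1i3 on the other strand. Tomm34, a cytosolic co-chaperone rather than a membrane subunit, was at 72.7 and 66.3 CPM in the GSI libraries and 76.5 and 69.6 CPM in the washout libraries, and its groups overlapped (log2 difference 0.072 ± 0.1 SE, adjusted p = 0.583).

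Tomm20l (chr12:72212415-72224209), a paralog of Tomm20, was the translocase with the fewest reads among those tested. It had 16 and 13 reads in GSI and 72 and 21 reads after washout, which corresponds to 0.5 and 0.891 CPM in GSI and 2.12 and 1.56 CPM after washout (log2 fold change 1.51 ± 0.41 SE, adjusted p = 0.0233). The call depended on single libraries: leaving out GSI replicate 1 gave an adjusted p of 0.168, leaving out washout replicate 1 gave 0.153, and DESeq2 gave 0.0737. Its exons share 50 bases with the end of Timm9, which was at a higher level and also rose. The antisense RNA Tomm6os overlaps Tomm6 itself, and 1 read can lie on both. It was at 9 and 12.3 CPM in the GSI libraries and 11.8 and 18.2 CPM in the washout libraries, with overlapping groups (log2 difference 0.49 ± 0.26 SE, adjusted p = 0.16).

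**Figure D3:**
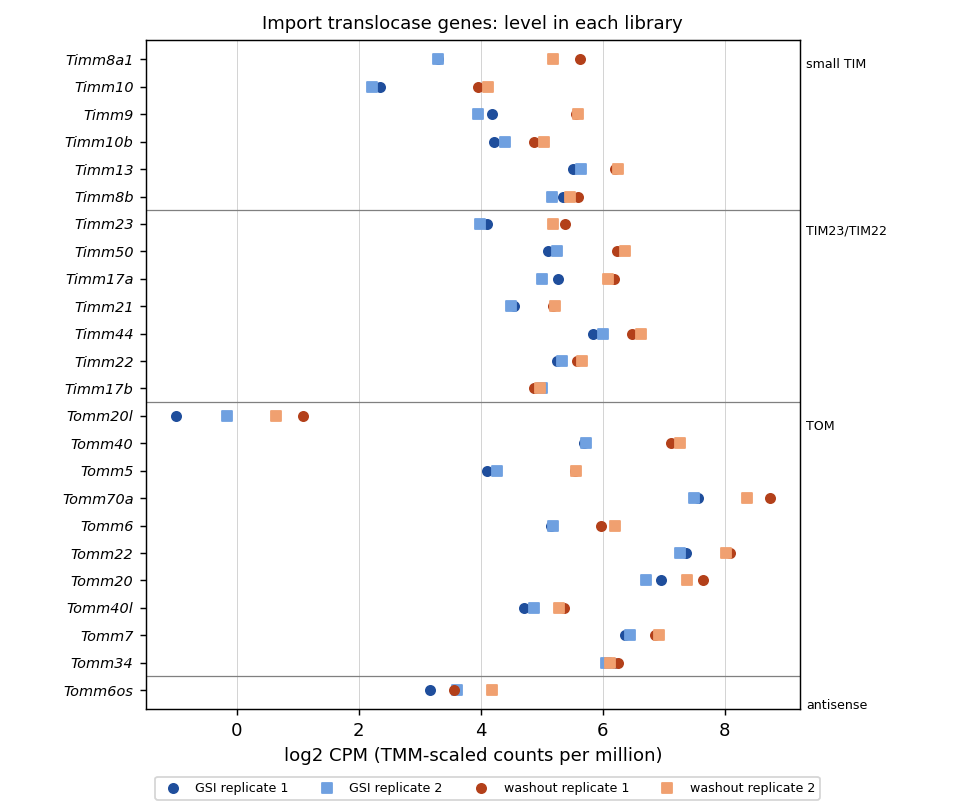
Level of each tested translocase gene and of Tomm6os in the 4 libraries, as log2 CPM scaled with TMM factors (horizontal axis), grouped by small TIM, TIM23 and TIM22, TOM, and antisense. Blue symbols are GSI and orange or red symbols are washout libraries, with circles for replicate 1 and squares for replicate 2. The groups overlap only in Timm17b, Tomm34 and Tomm6os.

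Levels between genes were compared per length, as CPM per kilobase of annotated exon averaged over the 4 libraries. Tomm22 (191), Tomm20 (105), Tomm7 (90.5), Timm8b (80) and Timm13 (49.9) were the highest translocases. None of these was called, and the called genes lay lower, from 2.13 for Tomm20l to 47.3 for Tomm70a. The summed level of the 24 translocase genes was 1139 and 1114 CPM in GSI and 2037 and 1922 CPM after washout. As a share of all counted reads, that was 0.123% and 0.119% in GSI and 0.191% and 0.179% after washout.

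Promoter sequence was read for the genes that rose together, from the RefSeq windows that run from 250 bases before to 50 bases after each start (GRCm38.p6). These stretches are shown because they hold the letters CACGTG, the E-box recognized by Myc, Max and related factors, in a translocase promoter (in capitals).
Timm8a1, chrX:134541874-134541920, minus strand: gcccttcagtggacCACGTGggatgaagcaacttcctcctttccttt
Timm9, chr12:71136701-71136760, minus strand: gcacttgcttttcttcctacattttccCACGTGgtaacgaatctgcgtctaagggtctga
Tomm20l, chr12:71111376-71111427, plus strand: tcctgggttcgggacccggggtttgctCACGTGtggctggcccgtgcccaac
Tomm20, chr8:126946015-126946074, minus strand: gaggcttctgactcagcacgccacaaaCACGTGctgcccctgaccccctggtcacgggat
The printed match lies 236 to 231 bases before the start in Timm8a1, 58 to 53 in Timm9, 25 to 20 in Tomm20l and 126 to 121 in Tomm20. CACGTG reads the same on both strands. The windows of Timm8a1 and Timm9 each hold 1 more match that reaches past the start, and the only match of Timm10 lies there too. In all, 5 of the 20 tested translocases with a window held CACGTG (25%), against 8.09% of the 27025 genes with a window and 11.7% of the 9073 tested genes with one. Among the 9 called translocases 4 held it, namely Timm8a1, Timm9, Timm10 and Tomm20l, and among the 11 others with a window only Tomm20 did. Of the 27 tested carriers with a window 4 held it (14.8%), and of all 36 carriers with a window 7 did (19.4%). They included Slc25a15, which rose, and Slc25a36, which fell, so the same letters stood before carriers of either direction.
Slc25a15, chr8:22398322-22398381, minus strand: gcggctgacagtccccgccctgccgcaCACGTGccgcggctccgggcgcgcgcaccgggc
Slc25a36, chr9:97111196-97111255, minus strand: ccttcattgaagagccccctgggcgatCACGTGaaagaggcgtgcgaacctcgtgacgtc

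The core letters of the motif of RBPJ, the DNA-binding factor of the Notch pathway, TGGGAA or TTCCCA on the other strand, stood in the windows of 7 of the 20 tested translocases (35%), of 4 of the 27 tested carriers (14.8%) and of 6 of all 36 carriers with a window (16.7%), against 28.3% of all genes with a window and 26.2% of those tested. Of the 9 called translocases 3 held it (33.3%), namely Timm9, Timm10 and Timm23, the last in 2 places. Of the 11 others with a window 4 did (36.4%), namely Timm13, Timm22, Timm44 and Tomm34. The stretches of Timm10 and Timm23 are shown with TTCCCA in capitals.
Timm10, chr2:84826951-84827010, plus strand: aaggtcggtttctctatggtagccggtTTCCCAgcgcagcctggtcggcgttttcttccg
Timm23, chr14:32201912-32201971, minus strand: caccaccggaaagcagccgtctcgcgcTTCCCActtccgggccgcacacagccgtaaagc
Timm23, chr14:32201943-32202002, minus strand: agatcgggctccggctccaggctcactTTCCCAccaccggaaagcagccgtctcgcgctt
In Timm9, TTCCCA shares bases with the CACGTG shown above. The motif of the respiratory gene factor NRF1, searched on both strands, stood in the windows of 2 of the 20 tested translocases (Timm8b and Tomm20), of 1 of the 27 tested carriers (Slc25a3) and of 1 untested carrier (Slc25a31), against 5.19% of all genes with a window and 12.1% of those tested. These are matches of letters only, and binding was not analysed here.

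Among the carriers, the adenine nucleotide and phosphate carriers Slc25a3, Slc25a4 and Slc25a5 were among the 5 highest per length and rose, and of their calcium-regulated relatives 1 fell. Slc25a5 (chrX:34335646-34338802), the ADP/ATP carrier of dividing cells, was at 209 and 216 CPM in the GSI libraries and 458 and 427 CPM in the washout libraries. Its groups were clearly separate, and its log2 fold change was 1.06 ± 0.1 (SE, adjusted p = 0.000605), or 2.09-fold. Slc25a4, the ADP/ATP carrier typical of muscle and heart, was at 173 and 149.7 CPM in the GSI libraries and 279 and 271 CPM in the washout libraries (log2 fold change 0.77 ± 0.11 SE, adjusted p = 0.00204). The phosphate carrier Slc25a3 was at 194 and 204 CPM in the GSI libraries and 401 and 369 CPM in the washout libraries (log2 fold change 0.95 ± 0.1 SE, adjusted p = 0.000848). Slc25a3, Slc25a4 and Slc25a5 supply the ATP synthase with its substrates and export its product, and in each of them both washout libraries were higher. Per kilobase of exon, Slc25a5 (199), Slc25a4 (92.7), Slc25a17 (57.2), Slc25a3 (52.6) and Slc25a39 (41.3) were the 5 highest carriers with an annotated length. Slc25a51, which had no length, was at 166 and 147 CPM in GSI and 137 and 122 CPM after washout and could not be ranked. Among carriers with a length, the 3 genes Slc25a3, Slc25a4 and Slc25a5 together held 37.8% and 38.2% of the summed carrier level per kilobase in GSI and 53.4% and 52.6% after washout. The other 44 carriers summed to 1325 and 1286 CPM in GSI and to 1355 and 1292 CPM after washout, with overlapping groups. Slc25a3 reached 1.02 when washout replicate 2 was left out. The call of Slc25a5 rested on the threshold of 1, since its log2 fold change was 0.86 with total count scaling and 0.9 after adjustment for exon length and GC content.

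Of the ATP-magnesium/phosphate carriers, which are activated by calcium, Slc25a23 was lower after washout, at 84.7 and 95.8 CPM in the GSI libraries and 58.2 and 66 CPM in the washout libraries (log2 fold change -0.54 ± 0.11 SE, adjusted p = 0.00875). Slc25a25 was at 47.5 and 47.6 CPM in the GSI libraries and 54.6 and 51.6 CPM in the washout libraries (log2 difference 0.16 ± 0.094 SE, adjusted p = 0.201), which did not pass although the groups did not overlap. Slc25a24 was listed at 0 in every library. Slc25a17, a peroxisomal member of the family, and Slc25a42, which carries coenzyme A, had overlapping groups and log2 differences of 0.11 ± 0.12 (SE, adjusted p = 0.481) and -0.66 ± 0.41 (SE, adjusted p = 0.223). Slc25a42 was called lower (-1.12, adjusted p = 0.0476) when washout replicate 2 was left out. In all, 3 of 7 tested members of this group passed the adjusted p as higher and 1 as lower. Over all genes these shares were 27% and 25.4%. Slc25a23 did not pass without GSI replicate 2.

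Of the 10 amino acid carriers tested, 4 passed the adjusted p as higher and 2 as lower, against 27% and 25.4% of all genes. Without GSI replicate 1 these were 2 and 1, without GSI replicate 2 they were 2 and 0, and without washout replicate 1 they were 3 and 0. Slc25a15, the ornithine carrier of the urea cycle, was at 34.8 and 28.8 CPM in the GSI libraries and 60.1 and 49.2 CPM in the washout libraries (log2 fold change 0.78 ± 0.15 SE, adjusted p = 0.00608). Slc25a38, a glycine carrier needed for heme synthesis, was at 7.22 and 7.81 CPM in the GSI libraries and 11.6 and 13.5 CPM in the washout libraries (log2 fold change 0.74 ± 0.17 SE, adjusted p = 0.0137). The glutamate carriers went in opposite directions. Slc25a22 was at 20.1 and 19 CPM in the GSI libraries and 29.4 and 25.9 CPM in the washout libraries (log2 fold change 0.5 ± 0.13 SE, adjusted p = 0.0167), and Slc25a18 (chr6:120723786-120744000) was at 1.5 and 1.92 CPM in the GSI libraries and 0.588 and 0.521 CPM in the washout libraries. Slc25a18 was 2.97-fold lower after washout (log2 fold change -1.57 ± 0.36 SE, adjusted p = 0.0127), from 48 and 28 reads in GSI and 20 and 7 reads after washout. The call of Slc25a18 was lost when GSI replicate 2 was left out (adjusted p = 0.0737), when washout replicate 1 was left out (0.0705) and with DESeq2 (0.0608). Slc25a47 (chr12:110089339-110095024), a carrier first described in liver whose substrate is less settled, was called higher from similarly few reads, 52 and 12 reads in GSI and 117 and 49 reads after washout (log2 fold change 1.45 ± 0.37 SE, adjusted p = 0.0174). Its adjusted p was 0.0578 without GSI replicate 2 and 0.0876 in counts thinned to the smallest library. The aspartate/glutamate carrier Slc25a12, part of the malate-aspartate shuttle, was at 126 and 130.4 CPM in the GSI libraries and 107 and 106 CPM in the washout libraries and lower by a small margin (log2 fold change -0.27 ± 0.087 SE, adjusted p = 0.0406). Slc25a2, a second ornithine carrier, was at 2.13 and 1.44 CPM in the GSI libraries and 1.09 and 1.04 CPM in the washout libraries, and its log2 difference of -0.77 ± 0.35 (SE, adjusted p = 0.108) did not pass. Together, the 3 remaining tested members of the group had log2 differences between -0.15 and 0.11, and none passed.

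Of the carriers of di- and tricarboxylates, 1 of 4 tested passed the adjusted p as higher and 1 as lower, close to the 27% and 25.4% of all genes. Slc25a10, the dicarboxylate carrier for malate and succinate, was at 24.9 and 31.9 CPM in the GSI libraries and 39.4 and 50.7 CPM in the washout libraries (log2 fold change 0.67 ± 0.18 SE, adjusted p = 0.0204), and did not pass without GSI replicate 1 (adjusted p = 0.106) or with total count scaling. Slc25a11, the oxoglutarate/malate carrier and the other arm of the malate-aspartate shuttle, was at 96.8 and 92 CPM in the GSI libraries and 78.9 and 80.6 CPM in the washout libraries (log2 difference -0.25 ± 0.089 SE, adjusted p = 0.0583), which fell short of the threshold. Slc25a35 (chr11:68781633-68787867), an orphan carrier, was at 3.72 and 4.25 CPM in the GSI libraries and 1.65 and 1.19 CPM in the washout libraries, with a log2 fold change of -1.44 ± 0.3 (SE, adjusted p = 0.00845) that made it 2.71-fold lower. Slc25a35 had few reads, 119 and 62 in GSI and 56 and 16 after washout. It shares 1151 exon bases with Rangrf on the other strand, so its counts are uncertain. The remaining tested member of the group had a log2 difference of 0.080 and did not pass.

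Among carriers of acylcarnitine, cofactors, iron and pyrimidine nucleotides, 4 of 11 tested passed the adjusted p as higher and 2 as lower. These shares of 36.4% and 18.2% compare with 27% and 25.4% of all genes, and 0 of the group were called. Without either of the GSI replicates 1 passed as higher (Slc25a32 without replicate 1, Slc25a39 without replicate 2) and 2 as lower. The counts were 2 and 2 without washout replicate 1 and with DESeq2, and 1 and 3 with total count scaling. Slc25a32, which transports folate, was at 26.6 and 21.4 CPM in the GSI libraries and 53.3 and 32.8 CPM in the washout libraries (log2 fold change 0.85 ± 0.24 SE, adjusted p = 0.026), with a wide gap between the washout libraries. Slc25a26, the carrier of S-adenosylmethionine, the methyl donor of the organelle, was at 8.1 and 8.64 CPM in the GSI libraries and 13.4 and 11.1 CPM in the washout libraries (log2 fold change 0.56 ± 0.18 SE, adjusted p = 0.0371). Slc25a39, a carrier needed for mitochondrial glutathione, and the mitoferrin Slc25a28, which imports iron, rose by 0.5 ± 0.097 (SE, adjusted p = 0.00654) and 0.42 ± 0.11 (SE, adjusted p = 0.0216). In all 4 genes both washout libraries were above both GSI libraries. Slc25a36, a pyrimidine nucleotide carrier, was at 61.4 and 55.1 CPM in the GSI libraries and 35.4 and 26 CPM in the washout libraries (log2 fold change -0.91 ± 0.16 SE, adjusted p = 0.00467). Slc25a20, the carnitine/acylcarnitine carrier that brings fatty acids in for oxidation, was at 53.9 and 52 CPM in the GSI libraries and 34.2 and 30.6 CPM in the washout libraries (log2 fold change -0.7 ± 0.11 SE, adjusted p = 0.00261). These 2 carriers were lower in both washout libraries. The second mitoferrin Slc25a37, Slc25a40 (a paralog of Slc25a39) and Slc25a16 had overlapping groups, with log2 differences of 0.086, -0.28 and 0.16. The 2 remaining tested members of the group had log2 differences of -0.27 and 0.35 and did not pass. Slc25a32 passed the threshold of 1 when GSI replicate 1 (1.02) or washout replicate 2 (1.16) was left out, and Slc25a36 lay below -1 when washout replicate 1 was left out (-1.16) and with total count scaling (-1.11). None of the uncoupling-protein-like and other carriers passed, and their log2 differences ranged from -0.22 for Slc25a14 to 0.34 for Slc25a46, a protein of the outer membrane.

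**Figure D4:**
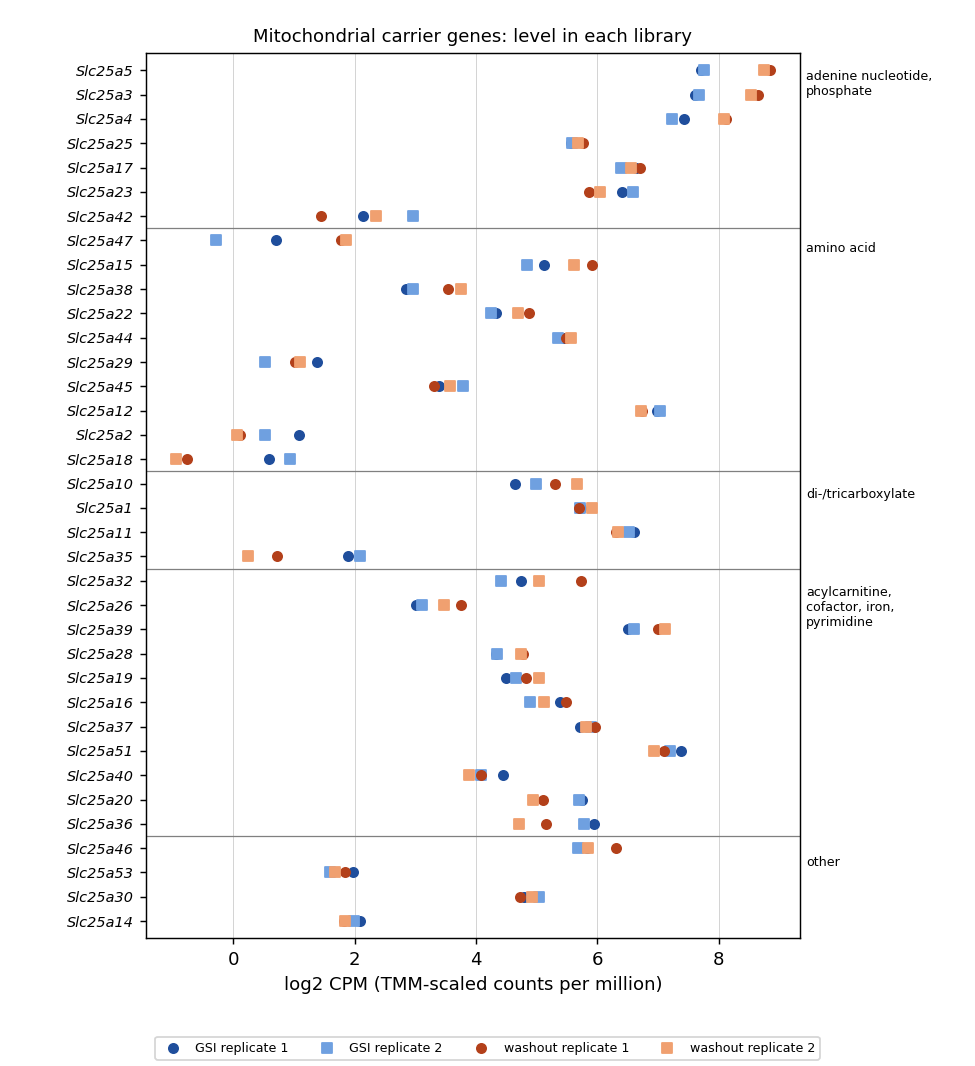
Level of each tested carrier in the 4 libraries, as log2 CPM scaled with TMM factors (horizontal axis), grouped by transported substrate, with blue symbols for GSI, orange or red for washout, circles for replicate 1 and squares for replicate 2. The washout symbols lie to the right for Slc25a5, Slc25a3 and Slc25a4 and to the left for Slc25a18, Slc25a35, Slc25a20 and Slc25a36.

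The remaining 12 members were not tested because of low counts. Slc25a21, Slc25a24, Slc25a31, Slc25a33, Slc25a43, Slc25a48 and Slc25a54 were listed at 0 in every library, as were 30.1% of all genes of the table. A count of 0 allows up to 3 reads, or 0.0938 and 0.206 CPM in the GSI libraries and 0.0881 and 0.223 CPM in the washout libraries, and covers counting error only. Of the others, Slc25a13, the second aspartate/glutamate carrier, had 7 and 1 reads in GSI and 0 and 0 reads after washout. Slc25a41 had 24 and 1 reads in GSI and 4 and 1 reads after washout, Slc25a34 had 1 and 1 reads in GSI and 1 and 0 reads after washout, and Slc25a27 had 0 and 0 reads in GSI and 0 and 3 reads after washout. Whether the counting or its annotation missed any of the genes listed at 0 was not tested.

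Ratios of related genes within a library do not depend on library scaling. Of 17 pairs set up, 13 had more than 3 reads for both genes in every library, and in 11 of these the GSI and washout ratios did not overlap. The levels of most single genes did not overlap either, with washout above GSI in 38.2% of all genes and below in 39.1%. Each pair was compared by an exact two-sided permutation test, which with 2 libraries against 2 cannot go below p = 0.33 (0.394 after Benjamini-Hochberg adjustment over the 13 pairs). The ratio of Timm8a1 to Timm8b counts was 0.24 and 0.273 in GSI and 1.03 and 0.827 after washout, a difference of 1.85 on the log2 scale. Timm17a to Timm17b was 1.3 and 0.998 in GSI and 2.5 and 2.15 after washout, a log2 difference of 1.03. Both pairs thus shifted toward the member that rose. Tomm40 to Tomm40l was 1.97 and 1.81 in GSI and 3.36 and 3.94 after washout (log2 difference 0.95). The glutamate carriers, Slc25a22 to Slc25a18, were at ratios of 13.4 and 9.89 in GSI and 50 and 49.7 after washout (log2 difference 2.12), and the ornithine carriers, Slc25a15 to Slc25a2, at 16.4 and 20 in GSI and 55.3 and 47.2 after washout (log2 difference 1.5). These and Timm8a1 to Timm8b were the 3 largest differences of the 13 pairs. The glutamate and ornithine pairs rested on few reads of 1 member, with 7 to 48 for Slc25a18 and 14 to 68 for Slc25a2. Slc25a10 to Slc25a11 had a log2 difference of 0.91, Slc25a39 to Slc25a40 of 0.78 and Slc25a28 to Slc25a37 of 0.34. In 3 further pairs both members rose and the differences were smaller. Timm9 to Timm10 was 3.6 and 3.34 in GSI and 3.04 and 2.77 after washout, Slc25a4 to Slc25a5 was 0.827 and 0.694 in GSI and 0.609 and 0.634 after washout, and Tomm20 to Tomm70a was 0.657 and 0.578 in GSI and 0.467 and 0.501 after washout (log2 differences -0.26, -0.29 and -0.35). Slc25a14 to Slc25a30 and Slc25a16 to Slc25a42 overlapped between the groups.

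**Figure D5:**
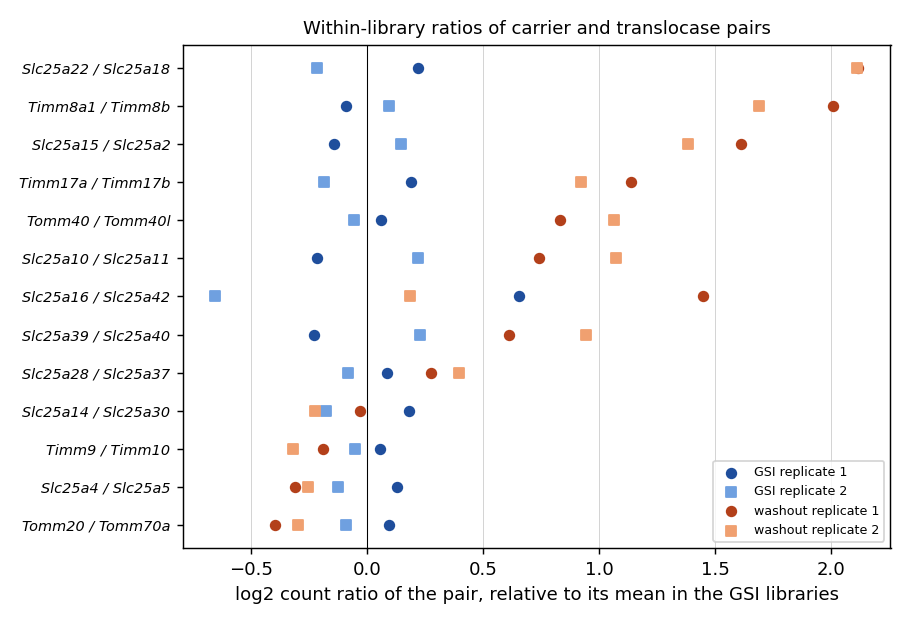
Log2 ratio of the counts of 2 related genes in each library, relative to the mean of the pair in the GSI libraries (horizontal axis), for the 13 pairs with enough reads. Washout symbols (orange or red) lie farthest to the right for Slc25a22 over Slc25a18, Timm8a1 over Timm8b and Slc25a15 over Slc25a2, and to the left for Tomm20 over Tomm70a and Slc25a4 over Slc25a5.

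A list of genes of the wider import pathway was also read, and most of those tested were higher after washout. The list was chosen with earlier results of these data known, so it is no independent support for the translocase result. Of 40 partners of import listed, 37 were tested. They are chaperones, processing peptidases, matrix proteases, the sorting machinery, the cristae and prohibitin complexes, and some other mitochondrial genes. Of these, 10 were called higher and 0 lower, with 30 passing the adjusted p as higher and 0 as lower, against the 7.74% and 27% of all genes given above, and the median log2 fold change was 0.72. With total count scaling 24 partners passed as higher and 1 as lower, and even fewer passed as higher without GSI replicate 1. The matrix chaperonin Hspd1 was at 165 and 176 CPM in the GSI libraries and 807 and 691 CPM in the washout libraries (log2 fold change 2.14 ± 0.13 SE, adjusted p = 0.000305). Hspa9, the chaperone that pulls precursors in as part of the import motor, was at 233 and 245 CPM in the GSI libraries and 864 and 818 CPM in the washout libraries (log2 fold change 1.81 ± 0.11 SE, adjusted p = 0.000305). Both were separated from GSI by several times the spread between replicates. Hspe1, the partner of Hspd1, and Chchd4, the receptor that oxidizes small TIM proteins in the intermembrane space, rose by 1.6 ± 0.098 (SE, adjusted p = 0.000305) and 1.62 ± 0.12 (SE, adjusted p = 0.000386). The prohibitins Phb and Phb2 rose by 1.64 ± 0.092 (SE, adjusted p = 0.000297) and 1.27 ± 0.1 (SE, adjusted p = 0.000438). The other 4 called partners were the cytosolic chaperone Hspa8 (1.22), the matrix protease Clpp (1.16), Dnajc11 (1.1) and the matrix chaperone Trap1 (1.06). The lowest partner was Chchd3, a cristae subunit, whose log2 difference of -0.29 ± 0.12 (SE, adjusted p = 0.0904) did not pass.

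Membrane transporters of mitochondria with symbols other than Slc25a were read as a further list of 29, of which 21 were tested. Of these, 3 were called higher and 2 lower, against 7.74% and 11.7% of all genes. At the adjusted p alone 13 passed as higher and 3 as lower (median log2 fold change 0.41). Abcb6, a porphyrin transporter, was at 15.4 and 14.8 CPM in the GSI libraries and 44.1 and 47.3 CPM in the washout libraries (log2 fold change 1.59 ± 0.11 SE, adjusted p = 0.000343). The serine carrier Sfxn1 and the outer membrane insertase Mtch2 were also called higher, by 1.14 ± 0.14 (SE, adjusted p = 0.00137) and 1.04 ± 0.11 (SE, adjusted p = 0.000731). Sfxn3, a paralog of Sfxn1, was at 13.7 and 13.4 CPM in the GSI libraries and 4.26 and 6.25 CPM in the washout libraries (log2 fold change -1.4 ± 0.23 SE, adjusted p = 0.00336), and Abcb10, an inner membrane transporter linked to heme synthesis, was also called lower (-1.04 ± 0.17 SE, adjusted p = 0.00367). More of this list passed as higher than as lower, where 27% and 25.4% of all genes did, and without GSI replicate 2 the counts were 8 and 3. Of 15 tested (18 listed) regulators of mitochondrial biogenesis, 2 were called higher and 0 lower, and 8 passed the adjusted p as higher and 1 as lower (median 0.49), against 7.74% of all genes called higher and 27% passing as higher. Without GSI replicate 1, 4 passed as higher and 0 as lower. The called genes were Pprc1, a coactivator of the PGC-1 family, with 1.5 ± 0.091 (SE, adjusted p = 0.000305), and Tfam, which packages mitochondrial DNA, with 1.03 ± 0.099 (SE, adjusted p = 0.000612). Myc was at 157 and 152 CPM in the GSI libraries and 283 and 334 CPM in the washout libraries (log2 fold change 0.997 ± 0.11 SE, adjusted p = 0.00102), just under the threshold of 1. The mitochondrial DNA polymerase Polg was the lowest, with -0.4 ± 0.10 (SE, adjusted p = 0.0165).

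The translocase genes had shorter exon models than the other genes. The median annotated exon length was 1498 bases for the 24 tested genes with a Timm or Tomm name, 2777 for the tested carriers and 3537 for all tested genes with an annotation, and the median GC content was 50.6%, 51.5% and 50.3%. With a correction for both properties, 8 translocases were called higher, and the medians were 0.83 for the translocases, 0.20 for the carriers and 0.075 for all genes. The translocase values rested on counts between 13 reads (Tomm20l in GSI replicate 2) and 14541 reads (Tomm70a in washout replicate 1).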

How the data were processed

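RNA-Seq of 4 libraries of Beko cells was used, 2 kept in GSI and 2 after its washout, grouped by the labels. The deposited values are raw read counts per gene: per the methods and labels, the authors used trimGalore for trimming, HISAT2 2.2.1 for alignment to mm9 (1 alignment per read) and summarizeOverlaps for counting over the iGenomes annotation, without normalization, pooling or filtering in the table. The authors tested with DESeq2, for which the processing notes give version 1.24.0 and the methods another one. The strand and overlap settings are not given in the sources used here, so overlapping and antisense genes are uncertain, and reads of near-identical copies can be split or placed on 1 of them.

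Counts were analyzed with edgeR 4.0.16 in R 4.3.3 (filterByExpr, TMM, glmQLFit and glmQLFTest, no covariates, Benjamini-Hochberg adjustment over all 12266 genes tested), and standard errors were derived from the log2 fold change and the F statistic (size over square root of F). CPM are scaled with TMM factors. A group with 3 counts or fewer in every library was held to be at the limit of detection. Exon lengths, GC content and positions are from GENCODE vM1 on mm9 and matched 71 of the 72 members, 5 of them by an older symbol, and promoters are from RefSeq (GRCm38.p6). No protein sequences were used. The script was tested on simulated counts. The members and the gene lists were chosen with earlier results of these data known. Named genes are the called members, the highest and lowest of each role group, the 5 most abundant carriers and translocases per length, paired and untested members, and the called genes and extremes of the other lists; further members were named after their values had been seen. Alternatives were DESeq2 1.42.0, RLE or total count scaling, other filters on low counts, the replicate number as a block, thinned counts, adjustment for GC content and length, and leaving out each library. The result of 1 further marker list is not reported here.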

Additional observations from a re-analysis of the deposited data

How the results depend on the processing

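The count of translocases called higher stayed between 7 and 10 under every alternative run, and 0 were called lower. With total count scaling, 1 carrier was called higher, 586 of all genes were called higher, the medians were -0.10 for carriers and 0.54 for translocases, and the log2 differences of Slc25a16 (-0.043), Slc25a17 (-0.094), Slc25a25 (-0.040), Slc25a37 (-0.11) and Tomm34 (-0.13), none of which had passed, turned negative, while the median of all genes moved by the same scaling to -0.21. The adjustment for GC content and length left 1 carrier called higher, with medians of 0.20 for carriers and 0.83 for translocases, and turned Slc25a17 (-0.12) and Timm17b (0.075). Timm17b was at 0.0088 without the filter on low counts. Carriers called higher were 1 in thinned counts, and carriers called lower were 1 with DESeq2 and 1 with at least 10 counts in every library, and the cause was not tested. Leaving out each library gave 1 (without GSI replicate 2) to 4 (without washout replicate 2) carriers called higher, and medians of 0.047 to 0.17 for carriers and 0.74 to 0.81 for translocases. Over the same fits the log2 difference ranged from -0.044 to 0.42 for Slc25a16, from -0.21 to 0.054 for Slc25a30, from -0.010 to 0.19 for Slc25a37 and from -0.090 to 0.039 for Timm17b, and the lone library left in a group was assumed to vary like the others. With the replicate number as a block, 981 genes were called higher and 1576 lower. Of 53 named members, 53 kept their direction and whether they were called. At the adjusted p alone some crossed the threshold, among them Timm8b (adjusted p = 0.0115) and Slc25a11 (0.00911). By that measure 14 carriers passed as higher and 11 as lower, against 12 and 6 without the block. The replicate numbers are only names in the labels: deviations from the group means correlated at 0.484 between same-numbered libraries, which also share their depth. Depth was lowest behind the calls of Slc25a18, Slc25a35, Slc25a47 and Tomm20l, which had at most 119 reads in any library.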
